A study of Homo sapiens with 12 samples.

Results

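Induction of estrogen receptor β in the presence of its ligand was followed by RNA sequencing in MDA-MB-468 cells. The comparison takes 6 of the 12 libraries of the series: 3 of cells given doxycycline and 17β-estradiol (E2), called here induced E2, and 3 of cells given E2 alone, called uninduced E2. The libraries were chosen by the treatment in their labels, and all genes were examined. MDA-MB-468 is an established triple-negative breast cancer line of basal-like character. The line used here carries full-length ERβ1 (gene ESR2) under doxycycline control, and the labels do not say whether it is a single clone. Doxycycline was given at 50 ng/mL for 48 hours or left out, and 10 nM E2 followed for 4 hours in both groups. The other 6 libraries received 0.1% DMSO in place of E2 and are used beside the results. All cells grew in phenol red-free DMEM with charcoal-stripped serum, 10% for 3 days and 5% during the experiment, so that little estrogen came from the medium. No group received doxycycline without carrying the ERβ1 construct, so effects of doxycycline and of ERβ1 cannot be told apart. Whether each replicate was a culture of its own is not stated in the labels. The p-values therefore measure the spread between libraries, part of which may be technical.

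ERβ is a nuclear receptor, a transcription factor whose activity is set by a ligand. With estradiol bound it pairs up, binds DNA at estrogen response elements, palindromes of the hexamer AGGTCA, or is held at other factors' sites such as those of AP-1 and SP1, and it recruits coactivators or corepressors. Its sister receptor ERα (gene ESR1) drives luminal breast cancers and is largely missing from triple-negative ones, so ERβ can be studied there with little ERα.

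The uninduced E2 libraries 1 to 3 held 17412140, 33326849 and 24884573 counts, and the induced E2 libraries 17965526, 26163892 and 22899527. The line's markers were present in all 6 libraries. On the TPM scale, which divides by transcript length, EGFR stood at 802 to 975, KRT5 at 529.9 to 868, KRT8 at 2265 to 3592 and EPCAM at 416 to 445. ERBB2 stood at 30.6 to 39.0 TPM and ESR1 at 1.18 to 1.87 TPM, while PGR reached at most 0.0131 TPM. In the first principal component of all 12 libraries, 42.3% of the variance, the induced E2 libraries scored 34.4 to 38.5 and the uninduced E2 libraries −18.3 to −17.3. The second component (13.7%) set the library numbered 1 apart from numbers 2 and 3 in both groups, at 6.58 against −9.15 to −8.76 in uninduced E2 and at 12.1 against −4.32 to −4.11 in induced E2. Number 1 carries an earlier date in the file names than numbers 2 and 3, so counts of list members that its removal moved by over 1.5 times are also given without it.

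The target of the induction came first. ESR2 stood at 2.26, 1.28 and 1.27 CPM (counts relative to the library's total, scaled between libraries by TMM) in the uninduced E2 libraries and at 116, 98.6 and 98.0 CPM in the induced E2 libraries. The groups were far apart, a 68.4-fold rise (log2 change 6.10 ± 0.14 (SE), adjusted p = 2.60e-12, edgeR quasi-likelihood test with Benjamini-Hochberg adjustment). Counts for ESR2 hold the transgene and the cell's own gene together. ESR1, the gene of ERα, stood at 5.49, 4.06 and 4.37 CPM before and 4.32, 4.13 and 3.596 CPM after induction, and the groups overlapped (log2 change −0.19 ± 0.18 (SE), adjusted p = 0.49).

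Induction in the presence of E2 moved a large part of the transcriptome, mostly by small steps. Of 14541 genes tested, 4078 (28%) passed an adjusted p of 0.05: 2184 (15%) were higher and 1894 (13%) lower in the induced E2 cells. By upper quartile scaling, which lowers the median of all genes by a further 0.042 on the log2 scale, from −0.011 to −0.052, the split was 1799 higher and 2679 lower, so the balance of the small changes depends on the scaling. The median size of a called change was 0.35 on the log2 scale, and 71.8% of called changes were under 1.5-fold. The larger changes leaned upward: 424 genes (2.92%) rose by at least 2-fold and 155 (1.07%) fell by at least 2-fold, and at 4-fold the counts were 122 and 16. Nearly all calls, 4066 of 4078, went one way in each of the 3 pairs of libraries that carry one number. Such agreement is likely in genes called from these same libraries and is not read as support for the calls. Without the libraries numbered 1, 2668 genes were higher and 2396 lower, and no call of the full set changed sign.

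How many genes could be called depended on their level. Among the lowest of 4 equal groups of genes by level, 316 of 3636 were higher and 234 lower, with a median standard error of 0.25 on the log2 scale. In the highest group, 801 of 3635 were higher and 521 lower, with a median standard error of 0.044. Called genes changed by a median log2 size of 1.05 in the lowest group and 0.23 in the highest, so small changes of rare transcripts were not detectable at this depth.

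**Figure D1:**
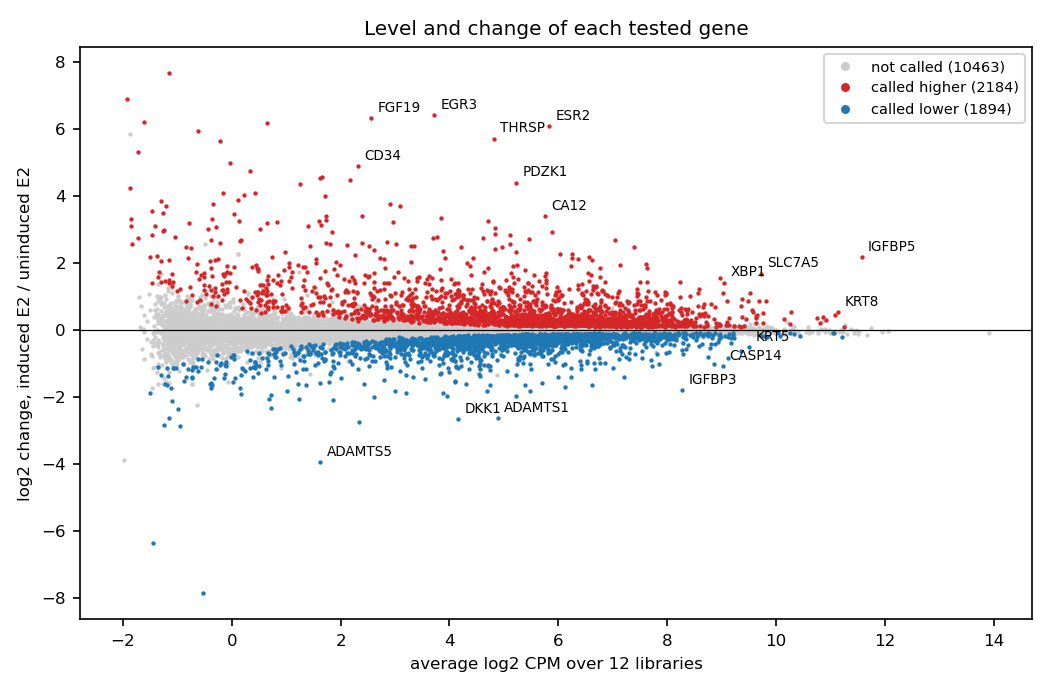
Each point is 1 of the 14541 tested genes, with its average log2 CPM over 12 libraries across and its log2 change, induced E2 over uninduced E2, upward; red points were called higher (2184), blue ones lower (1894) and grey ones neither. The largest rises and falls lie among genes of low and middle level, and IGFBP5, KRT8 and SLC7A5 are the most abundant of the labelled genes that rose.

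The largest increases took genes from near silence to clear expression. EGR3, an immediate early zinc finger transcription factor, stood at 0.509, 0.418 and 0.795 CPM in uninduced E2 libraries and at 42.4, 51.7 and 52.5 CPM in induced E2 libraries (85.9-fold, log2 change 6.42 ± 0.15 (SE), adjusted p = 2.60e-12). FGF19, a hormone-like fibroblast growth factor, went from 0.0566, 0.359 and 0.159 CPM to 21.9, 18.3 and 14.5 CPM (log2 change 6.32 ± 0.33 (SE), adjusted p = 3.01e-09). The first of these uninduced values lies under the floor of 3 counts, 0.17 CPM in that library, and without the uninduced library numbered 2 the log2 change was 7.21, so the size of the FGF19 rise is uncertain. THRSP, the thyroid hormone responsive regulator of fatty acid synthesis, stood at 1.25, 2.09 and 1.87 CPM against 77.7, 102 and 105 CPM (52.4-fold, log2 change 5.71 ± 0.15 (SE), adjusted p = 4.26e-12). PDZK1, a scaffold protein known as an estrogen target in luminal cells, stood at 4.98, 3.94 and 3.78 CPM against 128, 67.7 and 69.8 CPM. Its rise was 21.2-fold (log2 change 4.40 ± 0.36 (SE), adjusted p = 3.55e-07), and the induced library numbered 1 lay well above the other two. Without the libraries numbered 1 the log2 change of PDZK1 was 4.15. In none of these genes did the groups overlap, which is likely in genes picked for their large changes. Among all tested genes, 20.9% were higher and 20.5% lower without overlap.

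Several large increases were in genes of the cell surface and its surroundings. CD34, a sialomucin, went from 0.566, 0.538 and 0.437 CPM to 16.04, 14.98 and 14.8 CPM (29.5-fold, log2 change 4.88 ± 0.19 (SE), adjusted p = 1.15e-10). MGAT3, the glycosyltransferase that adds the bisecting sugar to N-glycans, went from 0.509, 0.777 and 0.517 CPM to 15.01, 12.9 and 14.5 CPM (22.4-fold, log2 change 4.48 ± 0.16 (SE), adjusted p = 5.79e-11). VWF, the von Willebrand factor, went from 0.340, 0.837 and 0.556 CPM to 6.77, 12.4 and 10.5 CPM (log2 change 4.00 ± 0.28 (SE), adjusted p = 6.76e-08). These 3 rose alike in all replicates, though VWF was lower in the induced library numbered 1 than in the other two. LOXL4, a lysyl oxidase that cross-links collagen, showed the same pattern among its induced libraries, at 4.38, 9.67 and 8.32 CPM against 0.340, 0.388 and 0.358 CPM without induction (log2 change 4.34 ± 0.35 (SE), adjusted p = 3.51e-07). SHISA2, a membrane protein known to restrain FGF and Wnt receptors, rose from 0.340, 0.568 and 0.397 CPM to 10.2, 11.3 and 11.4 CPM (log2 change 4.57 ± 0.23 (SE), adjusted p = 2.70e-09). RBP3, a retinoid carrier, stood at 0.509, 0.418 and 0.238 CPM against 10.1, 8.26 and 8.86 CPM (log2 change 4.55 ± 0.23 (SE), adjusted p = 2.20e-09). MAPK4, an atypical MAP kinase, completes the 12 largest increases with 0.792, 1.76 and 1.75 CPM against 16.7, 22.4 and 22.8 CPM (log2 change 3.77 ± 0.19 (SE), adjusted p = 2.17e-09).

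The largest decreases included secreted proteases and an inhibitor of Wnt signaling. ADAMTS5, an aggrecan-cutting protease, stood at 4.58, 4.39 and 4.61 CPM in uninduced E2 libraries and at 0.114, 0.433 and 0.2697 CPM in induced ones (15.3-fold lower, log2 change −3.94 ± 0.269 (SE), adjusted p = 5.80e-08), with the induced library numbered 1 under its floor of 3 counts. ADAMTS1, a second protease of that family, fell from 38.4, 43.2 and 45.8 CPM to 6.31, 6.49 and 7.82 CPM (6.18-fold lower, log2 change −2.63 ± 0.14 (SE), adjusted p = 4.45e-09). DKK1, a secreted blocker of the Wnt coreceptors, stood at 38.9, 20.6 and 20.3 CPM against 6.77, 3.03 and 3.10 CPM (log2 change −2.66 ± 0.39 (SE), adjusted p = 1.16e-04). DKK1 was higher in the libraries numbered 1 than in the others on both sides of the comparison, and the groups still did not overlap (log2 change −2.74 without number 1). STON1, an endocytic adaptor whose counts can be shared with a read-through transcript, fell from 5.55, 8.25 and 8.03 CPM to 1.02, 1.38 and 0.854 CPM (log2 change −2.74 ± 0.265 (SE), adjusted p = 2.15e-06).

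The other large decreases were of transcription factors, growth regulators and metabolic genes. SOX11, a transcription factor of progenitor cells that is expressed in basal-like tumors, went from 15.96, 21.5 and 21.2 CPM to 3.18, 5.82 and 5.89 CPM (log2 change −1.96 ± 0.22 (SE), adjusted p = 1.08e-05). FOXQ1, a forkhead factor, went from 18.3, 21.7 and 21.3 CPM to 5.46, 5.27 and 6.16 CPM (log2 change −1.87 ± 0.12 (SE), adjusted p = 3.34e-08). RASSF10, of the RASSF family, went from 9.28, 12.9 and 12.4 CPM to 2.56, 2.99 and 3.82 CPM (log2 change −1.89 ± 0.16 (SE), adjusted p = 5.09e-07). In these 3 genes the lowest value of each group was that of number 1 (for FOXQ1 in the uninduced group only). PPP1R3C, which targets a phosphatase to glycogen, fell from 48.0, 54.8 and 59.1 CPM to 12.1, 13.3 and 15.6 CPM (log2 change −1.98 ± 0.13 (SE), adjusted p = 2.72e-08). ACER1, a ceramidase of the epidermis, fell from 41.0, 41.2 and 39.5 CPM to 12.2, 11.2 and 10.9 CPM (log2 change −1.83 ± 0.067 (SE), adjusted p = 7.52e-11). NOV, a CCN family matrix protein, fell from 7.70, 10.1 and 9.38 CPM to 1.14, 2.75 and 2.70 CPM (log2 change −2.01 ± 0.23 (SE), adjusted p = 1.17e-05). HRCT1 (log2 change −2.08 ± 0.35) and KLHL38 (−2.06 ± 0.29) stood at 3.23, 5.86 and 5.37 and 2.49, 3.38 and 3.46 CPM without induction and at 0.626, 1.77 and 0.944 and 0.455, 0.472 and 1.30 CPM with it. Without the induced library numbered 3 the change of KLHL38 was −2.75.

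**Figure D2:**
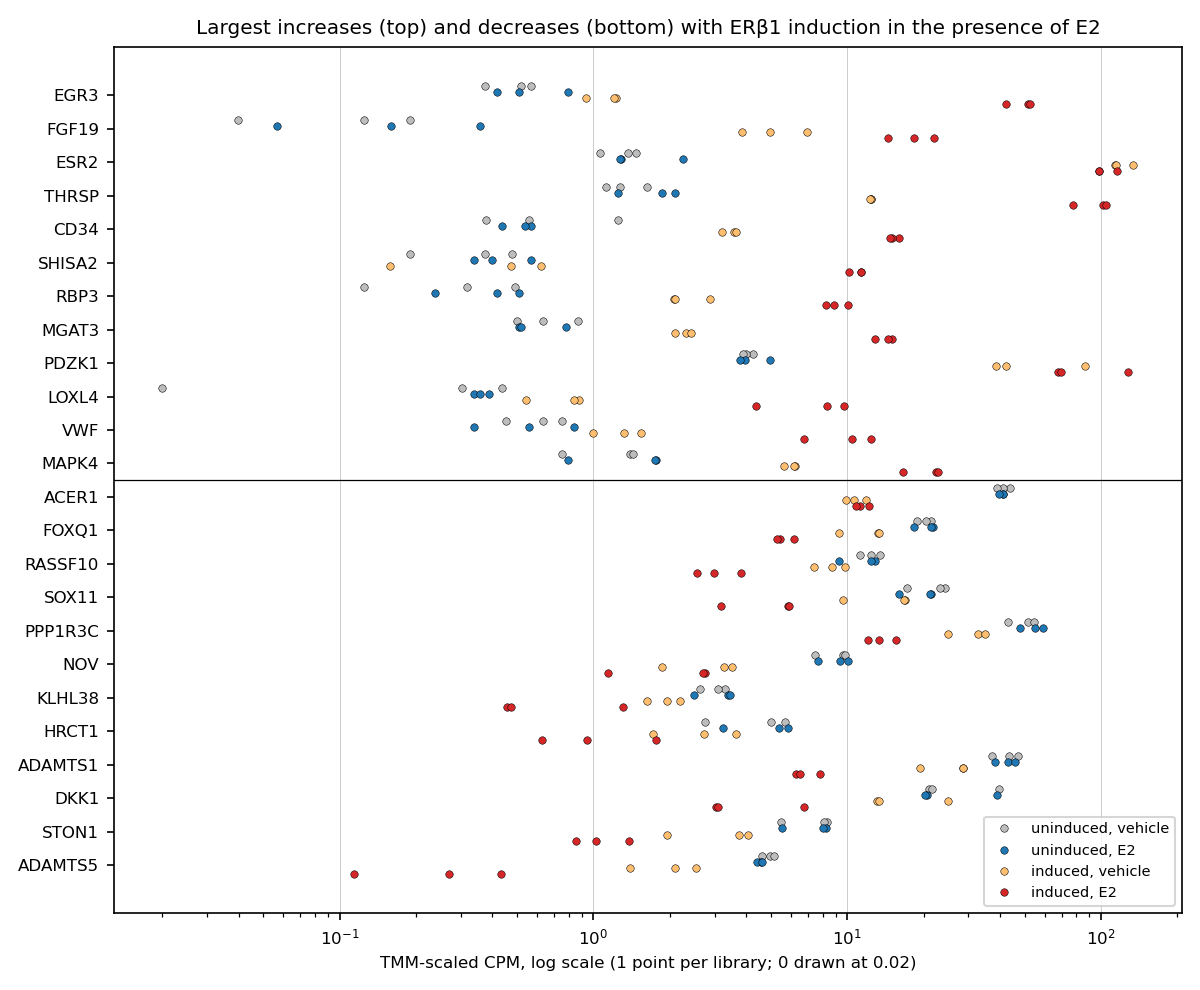
TMM-scaled CPM on a log scale, 1 point per library, for the 12 largest increases (top) and 12 largest decreases (bottom) in all 4 groups of 3 libraries. In each gene the 3 induced E2 points lie apart from the 3 uninduced E2 points, which is likely in genes picked for their large changes. The induced vehicle points of ESR2 and ACER1 lie at the level of the induced E2 points, and those of EGR3 and SHISA2 lie close to the uninduced points.

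Among abundant genes, the largest rises in absolute level included genes of secreted proteins, a transporter, transcription factors and keratins. IGFBP5, a secreted IGF-binding protein, had the largest rise in absolute level, from 995, 1535 and 1618 CPM to 6282, 6170.4 and 6411 CPM (4.54-fold, log2 change 2.18 ± 0.18 (SE), adjusted p = 5.20e-07). The 3 induced libraries lay close together, while the uninduced library numbered 1 was the lowest. SLC7A5, the light chain of the leucine transporter LAT1, went from 584, 488 and 455 CPM to 1860.4, 1485 and 1553 CPM (3.21-fold, log2 change 1.68 ± 0.12 (SE), adjusted p = 1.05e-07). XBP1, a transcription factor of secretory cells, went from 336, 352 and 346 CPM to 847, 973 and 939 CPM (2.67-fold, log2 change 1.42 ± 0.046 (SE), adjusted p = 2.64e-11). CLU, the secreted chaperone clusterin, rose 2.91-fold from 254, 332 and 314 CPM (log2 change 1.54 ± 0.13 (SE), adjusted p = 4.41e-07). The simple keratins KRT8 and KRT19 rose 1.44-fold and 1.36-fold, and the epithelial factor EHF 1.84-fold.

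The largest falls in absolute level were led by keratinocyte genes. CASP14, a caspase of cornifying keratinocytes, stood at 769.7, 648 and 623 CPM without and 271, 351 and 345 CPM with induction (2.11-fold lower, log2 change −1.08 ± 0.11 (SE), adjusted p = 5.53e-06). IGFBP3, another IGF-binding protein, moved opposite to IGFBP5, from 411, 450.0 and 435 CPM to 118, 130.5 and 123 CPM (3.48-fold lower, log2 change −1.80 ± 0.063 (SE), adjusted p = 5.03e-11). The basal keratins KRT17 and KRT5 fell 1.78-fold and 1.43-fold, and ITGB4, the integrin of hemidesmosomes, fell 2.02-fold from 521, 601 and 549.7 CPM to 272, 280.2 and 278 CPM (log2 change −1.01 ± 0.075 (SE), adjusted p = 1.38e-07). The cotransporter SLC12A2 was lower by 1.56-fold. ALCAM, an adhesion molecule, stood at 455, 558 and 570.1 CPM against 218, 348 and 335 CPM (log2 change −0.81 ± 0.18 (SE), adjusted p = 0.00339), with the widest spread of this set. Its call was lost without replicate 3 in all groups (adjusted p = 0.0527).

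Gene lists put these genes in their pathways. For each of 43 lists the numbers of tested members called higher and lower are given beside the 15% and 13% of all tested genes, together with the median change where it stood clear of the −0.01 of all tested genes. The lists and their members were chosen with earlier results of these data known, so a list carries no test here. Without replicate 2 or 3 in all groups fewer genes were called in all (2156 and 2054), and list counts are not repeated for those fits. By rule, at most 4 members per list were named, those called with the lowest p, and members named beyond those were chosen after their values were seen.

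**Figure D3:**
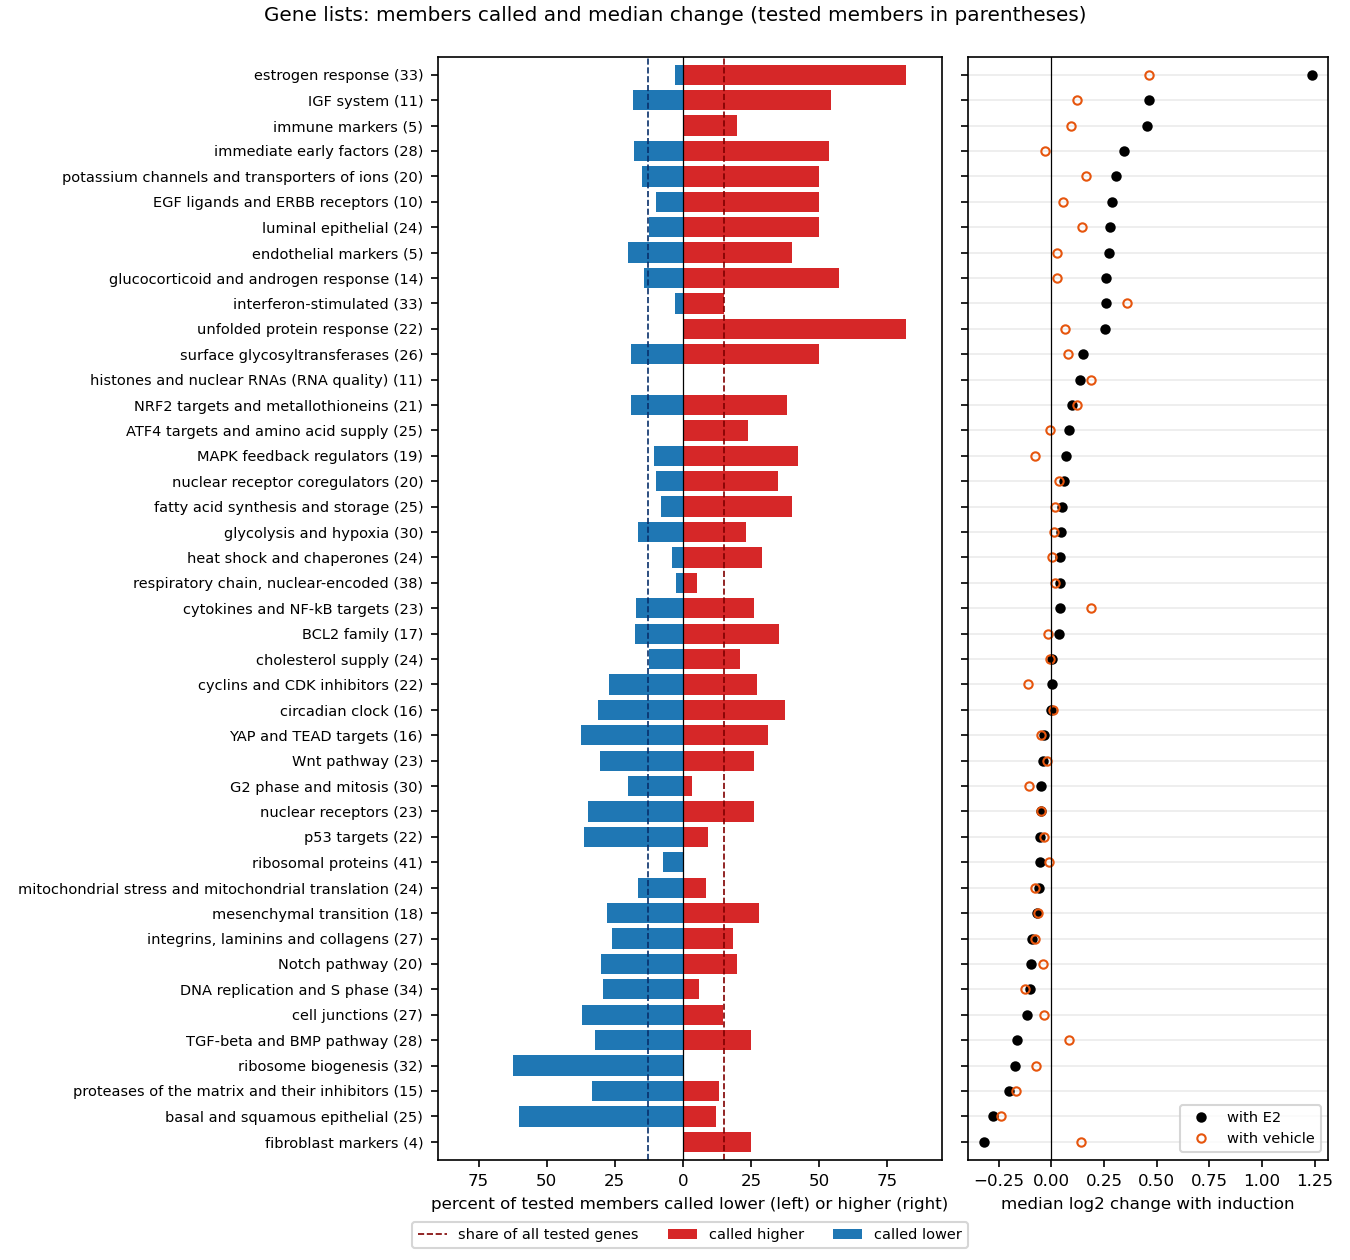
Left, the percent of tested members of each of 43 gene lists called lower (blue, leftward) or higher (red, rightward), with dashed lines at the share of all tested genes (13% lower, 15% higher). Right, the median log2 change of each list with induction in the presence of E2 (filled) and of vehicle (open); the estrogen response list stands at 1.24 with E2 and 0.47 with vehicle.

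Genes known as estrogen targets in luminal breast cancer cells rose widely. Of 40 genes of that list, 33 passed the filter on low counts, and 27 of these were higher and 1 lower (2 lower with the replicate number as a block and without number 1), with a median log2 change of 1.24. The filter can keep a gene through its induced libraries alone, so the count describes the members that passed and not all 40. With vehicle in place of E2, 20 of the 33 were called higher and 0 lower, with a median of 0.47. Among all tested genes 2.44% were higher and 1.37% lower with vehicle. PGR, TFF1 and TFF3, classic targets in luminal cells, were among the 7 that did not pass. CA12, a membrane carbonic anhydrase, stood at 12.2, 12.8 and 11.53 CPM against 119, 135 and 130.0 CPM (10.5-fold, log2 change 3.39 ± 0.084 (SE), adjusted p = 3.06e-12). WNT4, a signaling ligand of mammary branching, stood at 6.23, 7.71 and 7.51 CPM against 70.3, 70.0 and 66.7 CPM (9.51-fold, log2 change 3.25 ± 0.076 (SE), adjusted p = 2.60e-12). RAPGEFL1, a guanine exchange factor of the RAP family, stood at 7.81, 9.26 and 9.06 CPM against 71.1, 74.0 and 73.6 CPM (8.28-fold, log2 change 3.05 ± 0.093 (SE), adjusted p = 1.68e-11). All 3 were tight between replicates. The receptor tyrosine kinase RET (3.26 ± 0.21), the growth regulator GREB1 (3.40 ± 0.31) and the keratin KRT13 (3.69 ± 0.37) also rose, in log2 change ± SE. WISP2, a CCN family protein, had 2, 1 and 2 counts in the uninduced E2 libraries and 87, 138 and 111 counts in the induced ones. AGR2, a secretory protein disulfide isomerase, was the member that fell (log2 change −0.40 ± 0.062 (SE), adjusted p = 1.81e-04). STC2 (0.10 ± 0.17), SIAH2 (−0.044 ± 0.054) and ELF3 (0.022 ± 0.035), also estrogen targets elsewhere, were not called.

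**Figure D4:**
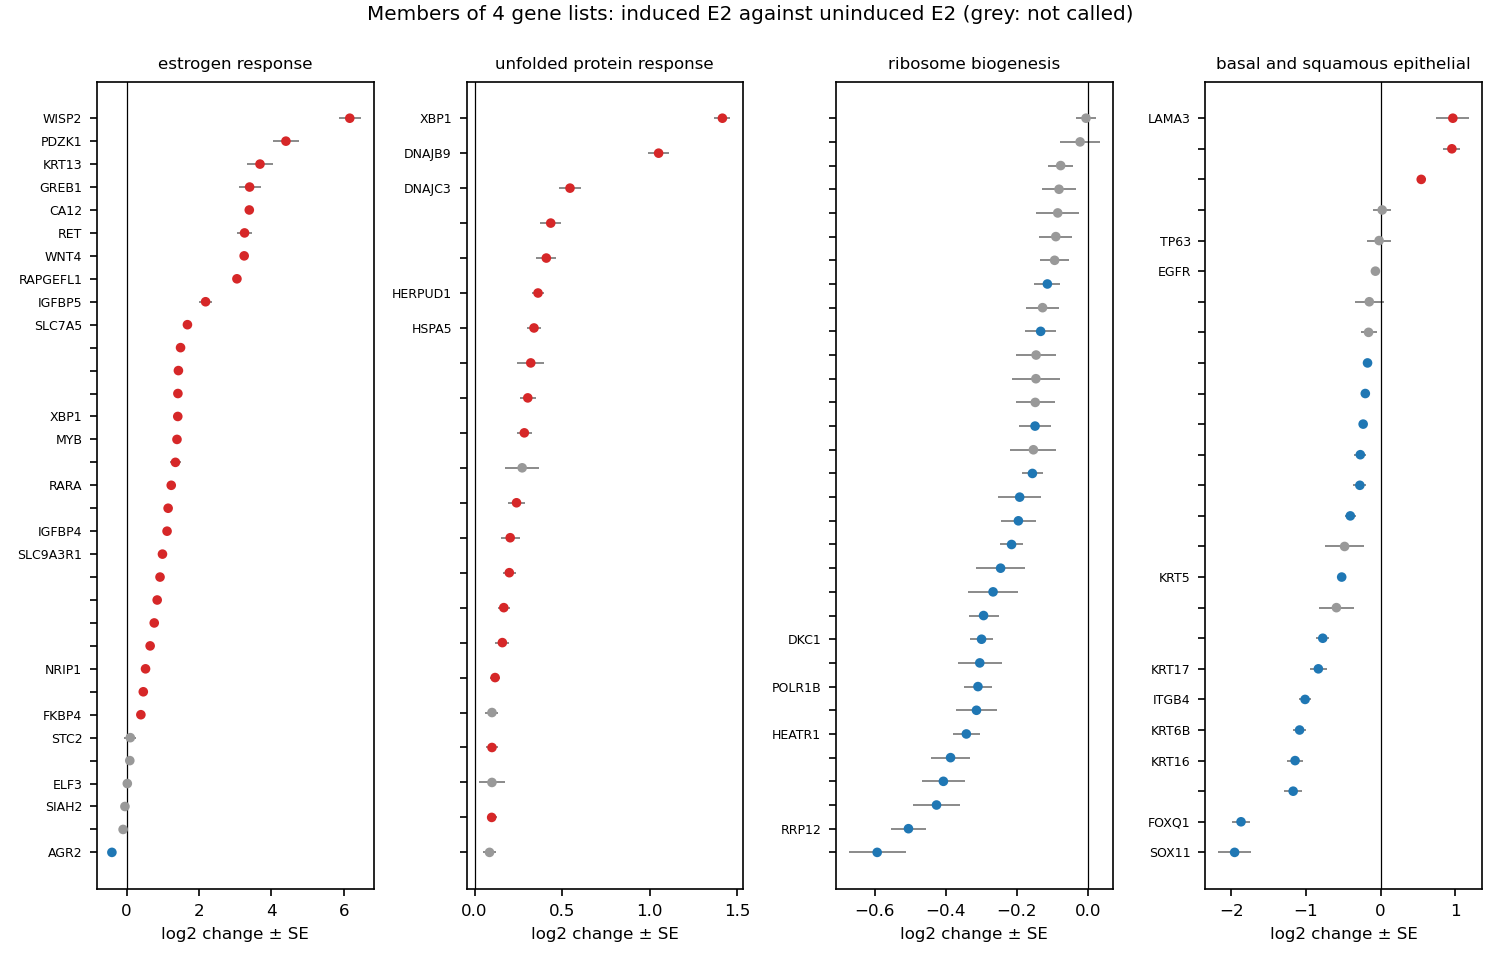
Log2 change of each tested member, with its standard error, for 4 gene lists; red was called higher, blue called lower and grey neither. Of the estrogen response list 27 of 33 members were called higher, of the unfolded protein response 18 of 22, of ribosome biogenesis 20 of 32 were called lower, and of the basal and squamous list 15 of 25 were called lower; the 4 panels have different scales, and only genes named in the text are labelled.

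The hexamer that estrogen receptors read was looked for in the promoters, taken as 250 bases before to 50 after each RefSeq transcription start in GRCh38.p14. Of the 14541 tested genes, 11092 were matched by symbol, with 16159 starts. AGGTCA on either strand stood in a promoter of 14.13% of all matched genes, of 18.6% of those called at least 2-fold higher (56 of 301), of 24.69% of those called at least 4-fold higher (20 of 81) and of 14.95% of those called at least 2-fold lower (16 of 107). Genes with several starts have more chances to hold a match, and the shares carry no test. The full estrogen response element, given by name only, whose arms overlap the hexamer, was in promoters of 3 matched genes and of 0 of the 301 and 107. The AP-1 site TGANTCA was in 7.285% of all, 10.63% of the 2-fold higher and 15.89% of the 2-fold lower genes. The SP1 site GGGCGG was in 75.61%, 70.1% and 69.16%, and the EGR site GCGGGGGCG in 10.49%, 11.96% and 14.95%. The CArG box of SRF, given by name only, was in 1.578%, 3.322% and 1.869%. In the 81 genes at least 4-fold higher, the AP-1 site was in 14.81% and the CArG box in 6.173%. The SP1 site was in 59.26% of them and the EGR site in 9.877%, so a larger share than among all genes was not particular to the hexamer. Such matches are letters in a window and not shown to be bound.

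The 250 bases before the start are shown for 4 genes whose promoter held the hexamer, to let its setting be read beside the changes. All 4 were chosen after their values were seen. ESR2 held the hexamer at 3 of its 5 starts and is not shown, since its counts include the transgene. Capitals mark AGGTCA as it reads on the gene's strand, 5′ to 3′. It begins 69 bases before the start in PDZK1 (chr1:145707401-145707650, minus strand, both of its 2 starts held a match) and 172 before in VASN (chr16:4371598-4371847, plus strand). It begins 230 bases before 1 of 3 starts of RARA (chr17:40308930-40309179, plus strand) and 210 before 1 of 2 starts of ARID5B (chr10:62049107-62049356, plus strand).
PDZK1: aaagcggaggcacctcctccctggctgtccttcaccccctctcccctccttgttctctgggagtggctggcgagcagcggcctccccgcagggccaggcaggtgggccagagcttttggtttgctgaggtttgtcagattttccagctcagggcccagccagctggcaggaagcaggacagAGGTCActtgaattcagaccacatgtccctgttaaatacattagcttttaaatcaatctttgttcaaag
VASN: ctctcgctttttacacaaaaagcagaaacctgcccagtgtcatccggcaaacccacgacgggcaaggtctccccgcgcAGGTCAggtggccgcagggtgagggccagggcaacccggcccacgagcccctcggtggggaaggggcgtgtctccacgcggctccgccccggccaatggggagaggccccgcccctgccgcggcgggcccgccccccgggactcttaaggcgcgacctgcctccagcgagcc
RARA: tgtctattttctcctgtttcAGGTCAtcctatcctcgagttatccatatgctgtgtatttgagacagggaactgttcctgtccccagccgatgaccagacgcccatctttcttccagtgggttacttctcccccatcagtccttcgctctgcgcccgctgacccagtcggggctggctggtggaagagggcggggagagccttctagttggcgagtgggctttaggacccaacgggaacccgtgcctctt
ARID5B: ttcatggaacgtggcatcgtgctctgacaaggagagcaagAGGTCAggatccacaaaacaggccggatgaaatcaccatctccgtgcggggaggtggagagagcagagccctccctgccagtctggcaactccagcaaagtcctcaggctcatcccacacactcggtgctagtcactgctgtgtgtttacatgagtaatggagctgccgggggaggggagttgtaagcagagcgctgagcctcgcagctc
The first 3 genes rose and the last fell. VASN, a membrane protein that binds TGF-β, stood at 31.5, 35.4 and 34.9 CPM against 111, 116 and 108 CPM (log2 change 1.71 ± 0.048 (SE), adjusted p = 1.05e-11). RARA, the retinoic acid receptor α, stood at 20.5, 25.4 and 20.9 CPM against 51.1, 54.6 and 52.9 CPM (log2 change 1.24 ± 0.075 (SE), adjusted p = 1.56e-08). ARID5B, a chromatin regulator with an AT-rich DNA-binding domain, stood at 126, 123 and 125 CPM against 38.2, 40.1 and 42.1 CPM (log2 change −1.63 ± 0.049 (SE), adjusted p = 1.67e-11). The same letters were thus present upstream of genes that moved in both directions.

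Other nuclear receptors changed on both sides. Of 23 tested receptors 6 were higher and 8 lower, with the induced ESR2 itself counted among the higher ones. Beside ESR2 and RARA, the thyroid hormone receptor THRA (0.60 ± 0.085) and the heme-sensing NR1D1 (0.82 ± 0.091) rose. RARG fell from 45.4, 48.3 and 47.7 CPM to 32.6, 29.1 and 31.3 CPM (log2 change −0.61 ± 0.050 (SE), adjusted p = 3.80e-07), opposite to its sister RARA, and RARB fell as well (−1.41 ± 0.39). The glucocorticoid receptor NR3C1 fell from 58.6, 55.2 and 58.5 CPM to 42.6, 38.7 and 40.8 CPM (log2 change −0.50 ± 0.053 (SE), adjusted p = 6.15e-06), and the mineralocorticoid receptor NR3C2 fell (−1.101 ± 0.13). Of 20 tested coregulators 7 were higher and 2 lower (4 lower with the replicate block and by upper quartile scaling). NRIP1, a corepressor that binds liganded receptors, rose 1.44-fold. NCOA4 was 1.72-fold higher, and NCOA7 1.65-fold lower at 158, 145 and 146 CPM (log2 change −0.72 ± 0.051 (SE), adjusted p = 8.41e-08). Of 14 tested genes known to respond to glucocorticoids or androgens, 8 were higher and 2 lower, with a median of 0.26. GLUL, glutamine synthetase, rose 2.17-fold and FKBP5 1.48-fold, while SGK1 (−0.35 ± 0.069) and TSC22D3 (−0.16 ± 0.048) fell.

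Among growth factor genes, transcripts of ligands, receptors, adaptors and feedback regulators changed. In the IGF system, 6 of 11 tested genes were higher and 2 lower, with a median of 0.46. The insulin receptor substrate IRS2 went from 43.4, 37.5 and 34.7 CPM to 201, 174 and 174 CPM (4.78-fold, log2 change 2.26 ± 0.13 (SE), adjusted p = 7.58e-09) and IRS1 from 38.3, 48.0 and 45.7 CPM to 99.1, 112 and 115 CPM (2.46-fold, log2 change 1.30 ± 0.10 (SE), adjusted p = 2.11e-07). IGFBP4 was 2.17-fold higher, and the receptors IGF1R (0.46 ± 0.059) and INSR (0.82 ± 0.094) rose less on the log2 scale than either substrate. Of 10 tested EGF ligands and ERBB receptors, 5 were higher and 1 lower. AREG, the amphiregulin gene, went from 3.34, 2.03 and 2.42 CPM to 17.4, 8.38 and 10.4 CPM (4.73-fold, log2 change 2.24 ± 0.36 (SE), adjusted p = 2.75e-04), with the libraries numbered 1 highest in both groups (log2 change 2.08 without them). TGFA went from 46.2, 41.5 and 42.3 CPM to 84.2, 95.9 and 94.1 CPM (log2 change 1.08 ± 0.070 (SE), adjusted p = 3.24e-08). EGFR, the main receptor of this line, was not called (log2 change −0.068 ± 0.044 (SE), adjusted p = 0.294), ERBB2 was 1.23-fold higher and ERBB3 1.32-fold lower.

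Immediate early genes, which cells switch on within minutes of a growth signal, were partly higher. Of 28 tested, 15 were higher and 5 lower, with a median of 0.35. Besides EGR3, EGR1 stood at 24.5, 28.5 and 27.7 CPM against 56.4, 59.4 and 62.8 CPM (log2 change 1.14 ± 0.072 (SE), adjusted p = 2.64e-08), MAFF at 21.2, 23.5 and 22.7 CPM against 67.7, 66.1 and 69.9 CPM (log2 change 1.59 ± 0.065 (SE), adjusted p = 2.71e-10) and KLF10 at 32.3, 29.8 and 32.5 CPM against 69.0, 70.9 and 69.5 CPM (log2 change 1.15 ± 0.058 (SE), adjusted p = 2.40e-09). FOS (1.86 ± 0.17) and MYC (0.59 ± 0.057) rose, and JUN (−0.36 ± 0.077) and the antiproliferative BTG2 (−0.80 ± 0.13) fell. Of 19 tested feedback regulators of MAP kinase signaling, 8 were higher and 2 lower. Members of the Sprouty family went opposite ways: SPRY4 from 9.57, 6.87 and 7.59 CPM to 32.6, 24.4 and 27.5 CPM (log2 change 1.83 ± 0.13 (SE), adjusted p = 1.19e-07) and SPRY1 from 25.1, 31.6 and 32.5 CPM to 8.64, 12.7 and 12.9 CPM (log2 change −1.37 ± 0.16 (SE), adjusted p = 1.61e-05). LRIG1, which lowers ERBB receptors, rose 1.41-fold and the phosphatase DUSP16 1.36-fold.

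Epithelial identity genes separated by lineage. Of 25 tested genes of basal and squamous epithelium, 15 were lower and 3 higher, with a median of −0.28, and of 24 tested luminal genes 12 were higher and 3 lower, with a median of 0.28. KRT16 fell from 113, 95.1 and 89.3 CPM to 51.9, 43.8 and 38.7 CPM (log2 change −1.15 ± 0.11 (SE), adjusted p = 1.48e-06) and KRT6B from 26.1, 22.1 and 22.7 CPM to 11.7, 11.7 and 9.80 CPM (log2 change −1.09 ± 0.086 (SE), adjusted p = 2.59e-07). These 2 keratins have close copies in the genome, so the split of their counts is less certain. The basal master regulator TP63 (log2 change −0.019 ± 0.17 (SE), adjusted p = 0.957) was not called, and the laminin gene LAMA3 (0.97 ± 0.22) of the same list rose. On the luminal side, CDH1 (E-cadherin) went from 143, 149.7 and 149 CPM to 316, 337 and 340.3 CPM (2.25-fold, log2 change 1.17 ± 0.039 (SE), adjusted p = 3.19e-11). TFAP2C, the AP-2γ factor, went from 74.4, 77.8 and 79.2 CPM to 154, 172 and 167 CPM (log2 change 1.09 ± 0.043 (SE), adjusted p = 1.67e-10) and MYB from 27.3, 26.5 and 29.1 CPM to 70.1, 72.1 and 75.2 CPM (log2 change 1.39 ± 0.054 (SE), adjusted p = 1.31e-10). GATA3 (0.49 ± 0.050) and ELF5 (0.99 ± 0.14) rose, while FOXA1 (−0.26 ± 0.065), the pioneer factor of luminal cells, fell. The luminal list shares XBP1, MYB, AGR2 and ELF3 with the estrogen response list.

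Contacts between cells and with the matrix changed in both directions. Of 27 tested junction genes 4 were higher and 10 lower (3 and 16 by upper quartile scaling). CLDN1, a tight junction claudin, fell from 82.7, 72.2 and 76.5 CPM to 40.7, 39.0 and 39.5 CPM (log2 change −0.95 ± 0.054 (SE), adjusted p = 7.61e-09) and CLDN23 2.05-fold (log2 change −1.04 ± 0.085 (SE), adjusted p = 3.93e-07), whereas TJP3 rose 1.63-fold (log2 change 0.70 ± 0.052 (SE), adjusted p = 1.33e-07). Of 27 tested integrins, laminins and collagens 5 were higher and 7 lower. Integrin β subunits split, with ITGB5 rising from 141, 142 and 139 CPM to 289, 236 and 238 CPM (log2 change 0.86 ± 0.086 (SE), adjusted p = 3.21e-06) and ITGB8 falling from 111, 102 and 108 CPM to 74.9, 73.6 and 75.7 CPM (log2 change −0.52 ± 0.039 (SE), adjusted p = 1.57e-07). LAMA4 fell 1.39-fold. Among 15 tested matrix proteases and their inhibitors, 2 were higher and 5 lower (8 lower with the replicate block, 9 without number 1), with a median of −0.20. Besides the 2 ADAMTS genes, PLAU, the urokinase gene, fell from 22.3, 22.6 and 21.1 CPM to 10.3, 9.67 and 11.6 CPM (log2 change −1.06 ± 0.069 (SE), adjusted p = 3.09e-08), while the inhibitor TIMP3 rose from 226, 237 and 238 CPM to 344, 362 and 367 CPM (log2 change 0.61 ± 0.041 (SE), adjusted p = 4.42e-08). Of 18 tested genes of the mesenchymal transition 5 were higher and 5 lower (3 higher by upper quartile scaling). SPARC rose from 0.906, 0.568 and 0.914 CPM to 5.52, 2.91 and 3.46 CPM (log2 change 2.33 ± 0.31 (SE), adjusted p = 5.08e-05) and CD44 1.32-fold (call lost without replicate 2, adjusted p = 0.068), and FN1, fibronectin, fell from 228, 228.9 and 231 CPM to 94.1, 146 and 147 CPM (log2 change −0.82 ± 0.17 (SE), adjusted p = 0.00184), with the induced library numbered 1 the lowest. S100A4 fell 1.14-fold.

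Developmental pathways showed single strong members and no common direction. Of 23 tested Wnt pathway genes 6 were higher and 7 lower. The ligand WNT4 rose while the ligand WNT10A fell from 25.1, 34.7 and 32.0 CPM to 15.3, 16.2 and 13.2 CPM (log2 change −1.05 ± 0.14 (SE), adjusted p = 5.13e-05). Among its inhibitors, DKK1 fell, SFRP1 rose from 495, 578 and 579 CPM to 978, 1037 and 1027 CPM (log2 change 0.88 ± 0.065 (SE), adjusted p = 1.35e-07), and RNF43, which removes Wnt receptors, fell 1.47-fold (log2 change −0.55 ± 0.078 (SE), adjusted p = 8.96e-05). AXIN2, a common readout of Wnt activity, had a log2 change of 0.46 ± 0.087. Of 20 tested Notch genes 4 were higher (2 without number 1) and 6 lower. The ligands JAG1 and DLL1 went opposite ways, JAG1 from 32.4, 23.7 and 21.1 CPM to 9.89, 7.47 and 7.64 CPM (log2 change −1.62 ± 0.21 (SE), adjusted p = 3.29e-05) and DLL1 from 0.849, 1.22 and 1.31 CPM to 4.61, 3.18 and 3.91 CPM (log2 change 1.74 ± 0.22 (SE), adjusted p = 2.82e-05). NOTCH3 fell 1.46-fold and the target HES1 rose 1.26-fold.

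Of 28 tested TGF-β and BMP genes 7 were higher and 9 lower, with a median of −0.16. The receptor TGFBR2 fell from 82.8, 81.3 and 80.9 CPM to 42.5, 39.6 and 40.1 CPM (2.01-fold lower, log2 change −1.01 ± 0.040 (SE), adjusted p = 2.12e-10). The BMP effector SMAD1 fell from 62.4, 56.6 and 62.3 CPM to 36.7, 33.2 and 36.6 CPM (log2 change −0.77 ± 0.054 (SE), adjusted p = 8.10e-08) and the pseudoreceptor BAMBI 1.58-fold, while SKIL, a repressor of SMAD signaling, rose 1.87-fold (log2 change 0.90 ± 0.060 (SE), adjusted p = 4.00e-08). Of 16 tested YAP and TEAD targets 5 were higher and 6 lower. CYR61 and CTGF, matrix proteins that often move as a pair, did not here: CYR61 went from 96.8, 109 and 109 CPM to 384, 439 and 414 CPM (3.92-fold, log2 change 1.97 ± 0.065 (SE), adjusted p = 2.64e-11) and CTGF fell (log2 change −1.70 ± 0.20 (SE), adjusted p = 1.41e-05). FJX1 rose 2.19-fold, AMOTL2 1.51-fold and AMOTL1 1.49-fold.

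Genes that serve protein folding in the endoplasmic reticulum rose together by small amounts. The log2 change was above 0 in all 22 tested genes of the unfolded protein response, 18 were called higher, and the median was 0.26. XBP1 led, and it is also on the estrogen response and luminal lists. DNAJB9 went from 37.4, 34.3 and 37.8 CPM to 76.9, 76.6 and 72.8 CPM (log2 change 1.05 ± 0.060 (SE), adjusted p = 9.02e-09), DNAJC3 rose 1.46-fold and HERPUD1 1.29-fold. HSPA5, the chaperone BiP that is the usual marker of this response, rose by 0.34 ± 0.042 in log2 change ± SE. Of 25 tested ATF4 targets and amino acid supply genes, 6 were higher (11 higher and 3 lower with the replicate block, 11 and 4 without number 1). They were 3 transporter genes, SLC7A5, its partner SLC3A2 (1.62-fold) and the glutamine carrier SLC1A5 (1.46-fold), and 3 others. These were the synthetase gene SARS (1.14-fold, call lost without replicate 3, adjusted p = 0.0584), the folate enzyme gene MTHFD2 (0.32 ± 0.076 in log2 change ± SE) and the stress factor DDIT3 (CHOP, 0.48 ± 0.14). Of 24 tested heat shock genes 7 were higher and 1 lower (3 lower with the replicate block and by upper quartile scaling, 2 without number 1). HSPB1 went from 249, 274 and 244 CPM to 502, 527 and 509.9 CPM (log2 change 1.003 ± 0.047 (SE), adjusted p = 1.20e-09). The receptor cochaperone FKBP4 rose 1.32-fold and HSPH1 1.37-fold.

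Genes that build ribosomes fell by small amounts. All 32 tested genes of ribosome biogenesis had a log2 change below 0, 20 were called lower, and the median was −0.17. RRP12, which matures the ribosomal subunits, went from 45.3, 46.0 and 44.3 CPM to 31.6, 31.5 and 32.4 CPM (log2 change −0.51 ± 0.050 (SE), adjusted p = 2.53e-06). HEATR1, of the small subunit processome, fell 1.27-fold, POLR1B, a subunit of RNA polymerase I, 1.24-fold, and DKC1, the pseudouridine synthase dyskerin, 1.23-fold. MYC, a known activator of this program, rose. The ribosomal proteins themselves, 41 tested, had 3 members lower (13 with the replicate block, 19 by upper quartile scaling, 23 without the libraries numbered 1). Their largest fall was −0.10 on the log2 scale, with RPLP0 at 1056, 1109.5 and 1087 CPM against 1029.8, 1002 and 1008 CPM (log2 change −0.098 ± 0.033 (SE), adjusted p = 0.0387). The calls of RPLP0, RPL30 and RPL32 were lost when single libraries were left out, and their adjusted p reached 0.358, 0.373 and 0.276 under the alternatives. Of 24 tested genes of mitochondrial stress and translation 2 were higher and 4 lower (7 lower with the replicate block and without number 1, 8 by upper quartile scaling), with the mitochondrial transcription factors TFB2M (1.49-fold) and TFAM (1.26-fold) and the ribosomal MRPS18B (1.15-fold, call lost without replicate 2, adjusted p = 0.0785) lower and MRPL15 1.28-fold higher. Of 38 nuclear genes of the respiratory chain 2 were higher and 1 lower, with changes no larger than 0.15: ATP5B was 1.07-fold higher, and UQCRFS1 1.099-fold lower (call lost without replicate 2 or 3, adjusted p = 0.106 and 0.155). Leaving out single libraries ended the call of ATP5B, whose adjusted p reached 0.229 under the alternatives.

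Among cell cycle genes, more were lower than higher on the S phase and mitosis lists, and cyclins and inhibitors were called on both sides. Of 34 tested genes of DNA replication and S phase 2 were higher and 10 lower, with a median of −0.10 and no change of 2-fold. CHAF1B fell 1.27-fold, the helicase subunits MCM3 1.16-fold and MCM2 1.12-fold (call lost without replicate 2, adjusted p = 0.103), and CDC6, which loads the helicase, rose 1.25-fold. Of 30 tested genes of G2 phase and mitosis 1 was higher and 6 lower (3 and 12 with the replicate block, 4 and 9 without number 1). CDC25B went from 166, 156 and 149 CPM to 119.7, 114 and 110.2 CPM (log2 change −0.45 ± 0.055 (SE), adjusted p = 1.90e-05), UBE2C fell 1.24-fold, AURKB 1.19-fold (call lost without replicate 3, adjusted p = 0.0952), and CENPE rose 1.14-fold, a call that was lost without the uninduced library numbered 2 (adjusted p = 0.0607 by edgeR) and without replicate 2 or 3 in all groups (0.169 and 0.0716). Of 22 tested cyclins, kinases and inhibitors 6 were higher and 6 lower (3 and 8 by upper quartile scaling). The inhibitor CDKN1A (p21) rose from 47.0, 55.0 and 53.4 CPM to 110.5, 127 and 128 CPM (2.34-fold, log2 change 1.23 ± 0.075 (SE), adjusted p = 1.73e-08). Cyclin D1, CCND1, rose from 76.4, 85.8 and 84.2 CPM to 124, 126 and 123 CPM (1.51-fold, log2 change 0.60 ± 0.058 (SE), adjusted p = 2.31e-06), and its partner CDK6 fell from 34.3, 36.1 and 35.6 CPM to 17.9, 21.8 and 22.5 CPM (log2 change −0.77 ± 0.077 (SE), adjusted p = 3.14e-06). The inhibitor CDKN2B (p15) fell 1.78-fold (log2 change −0.83 ± 0.048 (SE), adjusted p = 9.13e-09).

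CDKN1A was an exception among p53 targets, of which 2 were higher (1 without number 1) and 8 lower of 22 tested. BTG2 fell 1.74-fold, AEN 1.37-fold and DDB2 1.27-fold. MDA-MB-468 is known to carry mutant p53. Of 17 tested BCL2 family genes 6 were higher and 3 lower, with members of both kinds among those that rose. The protectors BCL2 and BCL2L1 were 1.56-fold and 1.21-fold higher, and the killers PMAIP1 (NOXA) and BCL2L11 (BIM) 2.13-fold and 1.43-fold higher. PMAIP1 stood at 15.1, 12.2 and 14.3 CPM against 33.7, 27.8 and 26.6 CPM (log2 change 1.09 ± 0.13 (SE), adjusted p = 1.85e-05).

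In metabolism, the largest changes were of single genes. PFKFB3, which makes the activator of glycolysis, went from 41.7, 47.6 and 45.6 CPM to 185, 211 and 214 CPM (4.51-fold, log2 change 2.17 ± 0.063 (SE), adjusted p = 1.15e-11). Of the 30 glycolysis and hypoxia genes tested 7 were higher and 5 lower (11 and 8 with the replicate block), with HK1 1.503-fold and ALDOA 1.35-fold higher. The main glucose transporter SLC2A1 (−0.52 ± 0.055) and HK2 (−0.34 ± 0.059) fell. Of 25 tested fatty acid genes 10 were higher and 2 lower (4 lower with the replicate block), led by THRSP, and by small rises of PLIN3 (1.38-fold), ACSS2 (1.31-fold) and ACSL1 (1.26-fold). Of 24 tested cholesterol genes 5 were higher and 3 lower. NSDHL, an enzyme of cholesterol synthesis, rose 1.20-fold, and the exporter ABCA1 fell from 4.13, 4.42 and 5.56 CPM to 1.48, 1.42 and 2.34 CPM (log2 change −1.43 ± 0.22 (SE), adjusted p = 1.58e-04).

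Enzymes that shape cell surface sugars were among the more responsive lists: 13 of 26 tested were higher and 5 lower, with a median of 0.15. Beside MGAT3, B3GNT3 went from 106, 108 and 101.3 CPM to 202, 219 and 206 CPM (log2 change 0.99 ± 0.039 (SE), adjusted p = 1.54e-10) and B4GALT1 rose 1.69-fold. ST6GAL1, the main α2,6-sialyltransferase, fell from 73.7, 68.3 and 63.7 CPM to 23.0, 22.9 and 22.7 CPM (2.99-fold lower, log2 change −1.58 ± 0.070 (SE), adjusted p = 5.57e-10). Of 20 tested ion channels and transporters 10 were higher and 3 lower, with a median of 0.31. The chloride channel ANO1 went from 55.4, 73.2 and 70.6 CPM to 245, 264 and 256 CPM (3.82-fold, log2 change 1.93 ± 0.083 (SE), adjusted p = 4.03e-10), the bicarbonate transporter SLC4A7 rose 2.48-fold and the scaffold SLC9A3R1 (NHERF1) 1.99-fold. CA12 is counted here too, and CA2, another carbonic anhydrase, fell (log2 change −1.45 ± 0.28 (SE), adjusted p = 0.00112).

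Of 21 tested NRF2 targets and metallothioneins 8 were higher and 4 lower. All 4 named members are metallothioneins, small metal-binding proteins: MT1X rose 2.68-fold, MT1E 2.01-fold, MT2A 1.82-fold and MT1F 1.61-fold. Their sequences are alike, so counts may be split among them. Among NRF2 targets proper, TXNRD1 (−0.49 ± 0.056) and AKR1C1 (−0.55 ± 0.16) fell and HMOX1 (0.54 ± 0.063) rose. Of 16 tested circadian clock genes 6 were higher and 5 lower. The 3 PAR bZIP factors of the clock output all fell, HLF from 2.72, 3.35 and 3.26 CPM to 1.02, 1.06 and 0.944 CPM (log2 change −1.63 ± 0.20 (SE), adjusted p = 2.53e-05), DBP 1.61-fold and TEF 1.29-fold, while the repressor NR1D1 rose 1.77-fold.

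Cytokines and interferon targets differed between replicates as well as between groups. Of 23 tested cytokines and NF-κB targets 6 were higher and 4 lower. The complement gene C3 went from 36.0, 28.6 and 26.4 CPM to 169, 118 and 116 CPM (4.46-fold, log2 change 2.16 ± 0.16 (SE), adjusted p = 1.32e-07), and LIF from 21.0, 19.2 and 22.4 CPM to 72.4, 81.8 and 79.3 CPM (3.75-fold, log2 change 1.91 ± 0.083 (SE), adjusted p = 4.96e-10). CSF1 rose 2.25-fold and TNFAIP2 1.69-fold, and the chemokines IL8 (log2 change −1.92 ± 0.45 (SE), adjusted p = 0.00549) and CXCL1 (log2 change −1.54 ± 0.43 (SE), adjusted p = 0.0159) fell. Of 33 tested interferon-stimulated genes 5 were higher and 1 lower, with a median of 0.26, and 28 were higher and 1 lower with the replicate number as a block. Their summed level was 6099, 4470 and 4515 CPM in uninduced E2 libraries 1 to 3 and 6786, 5691 and 5525 CPM in induced E2 libraries, so the library numbered 1 was the highest in both groups. Without the libraries numbered 1, 29 were higher and 1 lower. With vehicle in place of E2 their median induction change was 0.36. USP18 went from 92.8, 73.0 and 80.6 CPM to 149.8, 128 and 126 CPM (log2 change 0.72 ± 0.10 (SE), adjusted p = 1.01e-04), BST2 rose 1.28-fold and ISG20 1.68-fold (call lost without replicate 3, adjusted p = 0.0577), and the factor IRF1 fell 1.25-fold.

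The same induction was also made with vehicle in place of E2. The vehicle comparison uses the other 6 libraries and shares none with the E2 comparison. There 554 genes (3.81%) were called, 355 higher (2.44%) and 199 lower (1.37%). The vehicle libraries numbered 1 held fewer counts than any E2 library, 7889310 in uninduced and 12713920 in induced vehicle. On the second principal component the uninduced vehicle libraries scored 34.5, −9.59 and −9.39. The numbers called with vehicle and with E2 are thus not on a like footing, and the differences below rest on these libraries too. The 424 genes that rose at least 2-fold with E2 had a median log2 change of 1.46 with E2 and 0.46 with vehicle, and 385 of them were above 0 with vehicle. The 155 that fell at least 2-fold had −1.30 and −0.46, and 146 of them were below 0 with vehicle. Of all 14541 tested genes, 7199 were above 0 and 7342 below 0 with vehicle. Among all tested genes, the difference between the induction changes was called in 1232 (8.47%), above the vehicle change in 823 (5.66%) and below it in 409 (2.81%). With the replicate block the last 2 counts were 1288 and 855, and without replicate 3 in all groups they were 242 and 64. The difference was called for 267 of the 424 and for 61 of the 155, in the direction of the E2 change in all of these. The 424 and 155 were picked for a large change with E2, which is also part of the difference. The order of their 2 medians and the number and direction of their called differences are therefore not read as results.

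Single genes show the range from ligand-free to ligand-dependent change. ACER1 fell alike in both states, by −1.83 with E2 and −1.93 with vehicle on the log2 scale, and the difference of 0.097 was not called (adjusted p = 0.697). FGF19 (6.32 and 5.34) and PDZK1 (4.40 and 3.75) were called in both states. Both had the larger value with E2, by differences that the edgeR interaction test did not call (adjusted p = 0.73 and 0.662). Equal changes are not shown by this. KRT5 fell by −0.52 and −0.51, with a difference of −0.0087 (adjusted p = 0.977). At the other end, SHB, a signaling adaptor, stood at 80.2, 74.0 and 73.4 CPM in uninduced vehicle, 75.7, 82.6 and 79.0 in induced vehicle, 77.1, 74.2 and 73.9 in uninduced E2 and 188, 184 and 182 in induced E2 libraries. The 9 libraries outside the induced E2 group lay between 73.4 and 82.6 CPM, and the difference of the changes was 1.23 (adjusted p = 7.28e-08). IRS2 rose by 2.26 with E2 against 0.072 with vehicle (difference 2.18, adjusted p = 3.87e-06). ARID5A, an RNA-binding regulator of cytokine messages, rose with E2 (1.16) and fell with vehicle (−0.39). RDH10, which makes retinaldehyde, did the reverse (−0.46 and 0.68). Of 499 genes called in both states 10 had opposite signs.

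**Figure D5:**
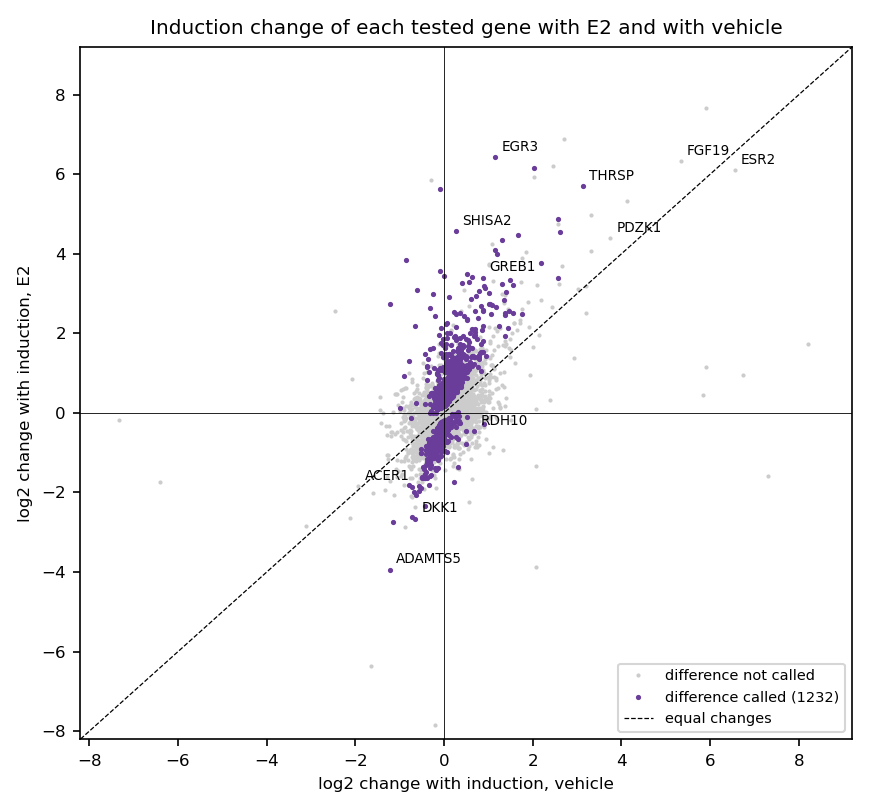
Each point is 1 tested gene, with its log2 induction change with vehicle across and with E2 upward; purple points are the 1232 genes whose difference between the changes was called, and the dashed line marks equal changes. EGR3 and SHISA2 lie far above the dashed line, ESR2 and ACER1 lie near it, and FGF19 and PDZK1 lie somewhat above it, with differences that were not called.

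Markers of other cell types were read because CD34, VWF and KDR are best known from endothelium. Of 10 endothelial markers 5 were tested, 2 were higher and 1 lower, and the lower one, the VEGF receptor KDR, went from 34.2, 47.7 and 49.1 CPM to 17.1, 19.3 and 20.3 CPM (log2 change −1.22 ± 0.15 (SE), adjusted p = 3.18e-05). The summed level of the 10 was 39.3 to 55.1 CPM in uninduced E2 and 44.6 to 51.6 CPM in induced E2 libraries. PECAM1 reached at most 0.41 TPM, CDH5 0.15 TPM and TEK 0.13 TPM in any of the 6 libraries, and TIE1 was at 0 in all. Fibroblast markers summed to 37.4 to 39.1 against 39.9 to 42.4 CPM, with DCN, LUM and POSTN at 0, and 1 of 4 tested was called (1 higher and 1 lower without number 1), FAP at 12.5, 11.7 and 10.1 CPM against 15.6, 13.4 and 14.1 CPM (log2 change 0.33 ± 0.11 (SE), adjusted p = 0.0441), a call that ended with the removal of any 1 of 5 libraries out of the 6 (adjusted p from 0.0506 to 0.181). Immune markers summed to 41.2 to 48.6 against 46.5 to 49.2 CPM, with CD3D, CD3E and MS4A1 at 0. Of 5 tested, 1 was called (2 higher and 1 lower without number 1), the CSF1 receptor CSF1R, which went from 7.19, 6.96 and 7.19 CPM to 15.2, 13.8 and 12.2 CPM (log2 change 0.95 ± 0.095 (SE), adjusted p = 3.04e-06). Of 11 tested histone and nuclear RNA genes, read as a sign of RNA quality, the 2 with the smallest p were HIST1H4H (log2 change 0.62 ± 0.29 (SE), adjusted p = 0.14) and HIST1H2BD (log2 change 0.13 ± 0.094 (SE), adjusted p = 0.328).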

How the data were processed

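Total RNA was taken with the RNeasy Plus kit and per the labels' protocols sequencing libraries came from the TruSeq V2 sample preparation. The authors deposited RSEM expected counts per gene symbol (23228 genes), and with them a fraction of transcripts per gene that sums to 1 in each library and is shown here as TPM. RSEM 1.1.16, DESeq 1.7.10 and hg19 stand in the submitters' processing notes, where DESeq has no stated role. No aligner is given in the sources used here. Expected counts were rounded, and 14541 genes passed filterByExpr (minimum count 10, minimum total 15). A quasi-likelihood model in edgeR 4.0.16 (R 4.3.3) with TMM scaling and 1 coefficient for each group used all 12 libraries, leaving 8 residual degrees of freedom, with a biological coefficient of variation of 5.34%. A gene was called at a Benjamini-Hochberg adjusted p under 0.05, and the difference between induction with E2 and with vehicle was tested as an interaction. Fold changes are fitted values. A floor of 3 counts was 0.0896 to 0.171 CPM in the 6 libraries, for counting error only. Tested on simulated counts of 14412 genes for this comparison, the fit called 84.8% of genes changed by 0.5, 91.0% of those changed by 1 and 100% of those changed by 2 on the log2 scale, and 3.68% of its calls were false. The simulation gave every gene the same dispersion, changed few genes and only in induced E2, and held no effect of the replicate number. The data differ in these points, so the rates apply to the simulated counts only.

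Named genes were the 12 largest increases and decreases (average log2 CPM of at least 1, same sign in all 3 pairs), the 8 largest rises and falls in mean CPM, ESR2 and ESR1, at most 4 members per list, those called with the lowest p (2 where none was called), and the 6 called genes with the smallest interaction p on each side. Some genes that these rules name are not reported here. The members, lists and rules were chosen with earlier results of these data known. Same-numbered libraries of the 2 groups deviated together from their group means (correlations 0.395, 0.107 and 0.264 over 12422 genes). Each was above 0.1, the bound set for pairing, so the numbers, which go with the file dates, were taken to pair the samples. Uninduced library 3 and induced library 2, of unlike numbers, also reached 0.281, so only number 1 was clearly set apart, and an alternative model held the number as a block. Others were RLE and upper quartile scaling, DESeq2 1.42.0, limma-voom (limma 3.58.1), 2 other filters, a fit of the 2 E2 groups alone, a stricter adjusted p of 0.01, and each library or replicate number left out. Promoters and their positions are RefSeq's in GRCh38.p14, joined by symbol only. Gene positions in hg19 are not used here.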

Additional observations from a re-analysis of the deposited data

Results flagged for a closer look

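The induction change with E2 differed from that with vehicle (edgeR interaction test, adjusted p under 0.05) in 37 genes named as the largest changes in fold or in mean CPM or for a small p of this difference. Over all 189 named genes, those named from the lists included, it was called in 136, against 1232 of all 14541 tested genes (8.47%). Most named genes were picked by the size or p of their change with E2, and some by this difference itself. Their share is therefore not read as a result. Each value below is the change with E2 minus that with vehicle on the log2 scale.

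Among genes that rose more with E2, EGR3 had a difference of 5.27, SHISA2 of 4.30, LOXL4 of 3.03, MGAT3 of 2.81, VWF of 2.80, THRSP of 2.57, CD34 of 2.32, RBP3 of 1.93 and MAPK4 of 1.58. The 6 with the smallest p were VASN (1.55), ARID5A (1.55), TBC1D2 (1.37), TTC7A (1.29), SHB (1.23) and RAB11FIP4 (1.14). Of genes named for a large rise in mean CPM, the difference was 1.15 for SLC7A5, 0.94 for IGFBP5, 0.80 for XBP1, 0.66 for CLU, 0.56 for EHF and 0.26 for KRT8. TBC1D2, a regulator of RAB GTPases, stood at 64.2, 62.8 and 60.2 CPM against 233, 227 and 217 CPM with E2 and at 60.2, 63.2 and 60.8 CPM against 90.7, 87.2 and 81.4 CPM with vehicle. EGR3 stood at 0.375, 0.566 and 0.516 CPM against 0.933, 1.23 and 1.21 CPM with vehicle, and the induced vehicle libraries lay far under the induced E2 ones.

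Among genes that fell more with E2, the differences were −2.71 for ADAMTS5, −2.01 for DKK1, −1.90 for ADAMTS1, −1.59 for STON1, −1.43 for KLHL38, −1.38 for SOX11, −1.37 for RASSF10, −1.29 for PPP1R3C and −1.15 for FOXQ1. Those named for a small p were ARID5B (−1.20), RDH10 (−1.14), TGFBR2 (−0.70), EFNA1 (−0.82) and ST6GAL1 (−1.13). Of genes named for a large fall in mean CPM, it was −1.004 for IGFBP3 and −0.67 for ITGB4. EFNA1, an ephrin ligand, stood at 49.9, 49.4 and 48.1 CPM against 24.8, 25.2 and 24.0 CPM with E2 and at 49.7, 47.9 and 45.8 CPM against 39.9, 43.4 and 42.4 CPM with vehicle.

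Of the 37 differences, 21 kept their call in every alternative run at this threshold, those of EGR3, ADAMTS5, XBP1 and IGFBP3 among them. The other 16 were lost in at least 1 alternative, 10 of them without a single library: IGFBP5 (adjusted p up to 0.0916), CLU (0.0984), EHF (0.0524), KRT8 (0.0655), KLHL38 (0.133), DKK1 (0.0928), LOXL4 (0.195), RBP3 (0.189), STON1 (0.0625) and MAPK4 (0.054). SOX11, RASSF10, FOXQ1, CD34, VWF and ITGB4 lost it when a replicate number was left out of all groups.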

How the results depend on the processing

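No call of the 4078 changed sign under any alternative. The replicate block gave 2774 genes higher and 2646 lower and kept 4073 of the 4078 calls. It raised the differences between E2 and vehicle to 1288 above and 855 below, and beyond the counts and lists given with the results it changed no call of a named gene. DESeq2 called 2026 higher and 1571 lower, and upper quartile scaling 1799 and 2679. At an adjusted p under 0.01, 1169 genes were lower, and the differences numbered 508 above and 188 below. With a minimum count of 50, 98 genes were at least 2-fold lower, where fewer genes were tested. Leaving out libraries or replicate numbers gave 1236 to 2668 genes higher, 818 to 2396 lower, 242 to 1276 differences above and 64 to 829 below. The lowest counts came without replicate 3 (1236 higher, 818 lower) and without replicate 2 (1278 and 878), and the highest without replicate 1. Leaving out the induced vehicle library numbered 2 gave 267 differences below. Over all alternatives, values of named genes stayed on their side of the threshold 3330 times and lost the call 71 times, in 15 genes, among them FAP, RPL30, RPL32, RPLP0 and ATP5B, and none changed sign. Depth limits genes of low level most, where the median standard error was 0.25 on the log2 scale in the lowest of 4 groups by level against 0.044 in the highest.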

Other observations

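Genes that were at or under 3 counts in every uninduced E2 library and called higher after induction numbered 15, and 5 were at or under 3 counts in every induced E2 library and called lower. They were found after the values were seen, and fitted fold changes mean little at such counts. The filter kept these genes only through other libraries, where they were higher. Their numbers were not set against all genes at that level and are not read as a result. OTOF, a calcium sensor of membrane fusion, had 1, 1 and 2 counts in the uninduced and 39, 81 and 70 in the induced E2 libraries. ISM1, a secreted protein, had 0, 2 and 0 against 53, 39 and 31. Signaling genes were among them: PTH1R, the parathyroid hormone receptor, had 0, 0 and 0 against 8, 20 and 16 counts, and ENPP2, which makes lysophosphatidic acid, 1, 0 and 0 against 9, 18 and 22. PDK4, a kinase that turns off pyruvate dehydrogenase, had 1, 3 and 1 against 13, 13 and 13. On the falling side, the prostaglandin receptor PTGER2 had 16, 11 and 9 counts against 1, 2 and 1 and the neuronal protein SLITRK5 9, 14 and 13 against 1, 1 and 2. The counts of POC1B-GALNT4 (0, 72.65 and 33.92 against 0, 0 and 0) and SMN2 (0, 0 and 0 against 0, 9.05 and 18.46) were uneven between replicates, and both names stand for transcripts that share sequence with another gene.

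The 10 genes called with opposite signs in the 2 states, chosen after the values were seen, included genes of several kinds. TIMP3 had a log2 induction change of 0.61 with E2 and −0.17 with vehicle, the neurotrophin receptor NTRK2 0.94 and −0.90, FOXA1 −0.26 and 0.37, the polo-like kinase PLK2 −0.272 and 0.15, and TNFSF10 (TRAIL) −0.20 and 0.33. The difference was called in each (adjusted p from 1.14e-06 for TIMP3 to 4.52e-04 for FOXA1, by edgeR).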
